A study of Mus musculus with 2 samples.

Results

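The SOX genes of foregut and squamous epithelium were followed in squamous organoids grown from mouse forestomach with and without Sox2. The set comprised 10 genes (Sox2, Sox4, Sox6, Sox7, Sox9, Sox11, Sox13, Sox15, Sox17 and Sox21) and the 3 probe sets, of 34472 on the array, that overlapped the long noncoding RNA gene Sox2ot, in which Sox2 lies. Of the 10 genes, 9 were among the 29456 genes that had a probe set with exactly 1 gene symbol. The probe set of Sox15 carried 2 symbols (Sox15 and Sox16), so it stands outside those 29456, and it was taken because its accession and both its ends matched Sox15 in RefSeq. The SOX2 KO culture was started from a mouse of the genotype Krt5CreER/+ Sox2Δ/Δ ROSA26tdTomato/+, in which a tamoxifen-inducible Cre driven from the Krt5 locus deletes Sox2 in squamous cells and turns on the tdTomato reporter. The control culture was labelled WT control. The study describes the controls of its mouse experiments as littermates lacking the Krt5CreER allele, and the alleles of the mouse behind this culture were not given further. Ages were not given either, and the study induced deletion in mice with tamoxifen. Both cultures were grown in Matrigel and RNA was hybridized to the Affymetrix Mouse Gene 2.0 ST array. Each group had 1 array, so genotype cannot be told apart from mouse, culture or array, no p-value can be computed and every value below stands without a replicate error.

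SOX proteins are transcription factors that share an HMG box, a DNA-binding domain first described in SRY, and that bend DNA and usually act together with partner factors. They are sorted into groups by the sequence of this domain. Sox2 belongs to group B and is known as a factor of the early foregut, where it favors esophagus and forestomach over airway, and later of the basal cells of squamous epithelium. Sox2ot is a noncoding gene that is transcribed in the same direction as Sox2 and holds the whole Sox2 gene within its span.

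The stretch before the Sox2 start site is shown because Sox2 was the gene of the 10 that differed most, and those of Sox21 and Sox4 because these had the next lowest and the highest deposited difference of the 10. Each is the 250 bases before the RefSeq start (GRCm38.p6), written along the strand of the gene. Capitals mark the SOX core letters ACAAAG and ACAATG and the octamer letters ATGCAAA, each searched on both strands.
Sox2, chr3:34649745-34649994, plus strand: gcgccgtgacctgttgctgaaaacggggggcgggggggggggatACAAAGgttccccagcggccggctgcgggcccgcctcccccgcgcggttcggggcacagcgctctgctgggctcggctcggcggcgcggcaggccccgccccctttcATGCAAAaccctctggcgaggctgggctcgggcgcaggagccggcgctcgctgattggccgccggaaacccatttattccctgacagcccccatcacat
Sox21, chr14:118237031-118237280, minus strand: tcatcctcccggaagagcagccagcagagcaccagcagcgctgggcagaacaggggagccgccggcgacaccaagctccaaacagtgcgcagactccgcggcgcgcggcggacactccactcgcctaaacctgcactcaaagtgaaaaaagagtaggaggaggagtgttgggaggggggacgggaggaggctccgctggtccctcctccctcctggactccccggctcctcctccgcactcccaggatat
Sox4, chr13:28953700-28953949, minus strand: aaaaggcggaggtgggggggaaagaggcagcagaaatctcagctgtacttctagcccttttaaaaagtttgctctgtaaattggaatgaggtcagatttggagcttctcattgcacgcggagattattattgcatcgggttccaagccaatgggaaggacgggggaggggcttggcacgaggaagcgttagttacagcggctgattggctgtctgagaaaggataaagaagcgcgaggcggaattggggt
The Sox2 stretch held ACAAAG 1 time, with its first base 206 bases before the start, and ATGCAAA 1 time, with its first base 99 bases before it, while those of Sox21 and Sox4 held none of the 3. RefSeq stretches were found for 7 of the 10 genes. Of these 7 genes, 2 (Sox2 and Sox6) held a SOX core in at least 1 stretch, Sox6 in 5 of its 6 alternative ones. Over all 32851 stretches of the same length, 16.5% held ACAAAG, 10.7% held ACAATG, 25.2% held at least 1 of these and 4.12% held ATGCAAA. A match describes the letters only.

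Values are the log2 signals deposited by the authors, and differences are SOX2 KO minus WT control on that scale. All genes had a median of 3.29 in the SOX2 KO library and 3.30 in the WT control library. As a stand-in for background, 95% of the values of 1127 olfactory receptor genes lay at or below 3.84, and the SD of their differences was 0.26. Among them 0 were at least 2-fold lower in SOX2 KO and 0.710% at least 2-fold higher. A value below 3.84 enters a fold as 3.84, which makes that fold a lower bound, and no fold is given where both values lay below. Counts by size use the deposited differences, with 2-fold standing for 1 on the log2 scale, and counts with signals below 3.84 set to 3.84 (bounded counts) are given beside them. A level below it may still be expression that the array does not resolve. In bulk RNA, fewer cells that express a gene and less RNA per cell cannot be told apart.

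Sox2, the deleted gene, had a signal of 2.53 in SOX2 KO organoids and 5.74 in WT control organoids. The deposited difference was -3.21, but the SOX2 KO value lay under the olfactory receptor level, so only a bound of at least 3.73-fold lower signal is given. With values below that level set to it the difference was -1.90, and 11 of the 29456 genes had a lower one. The probe set (17396878) covers 2457 bases of chromosome 3, from 34650005 to 34652461 on the plus strand, and so nearly the whole of the 2467 bases that RefSeq gives for Sox2. The ends of the deleted segment were not given in the sources used here, so the share of the probes that lies inside it is not known.

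Sox2 was the 1 gene of the 10 with a signal lower by 2-fold or more, a size reached by 0.435% of all 29456 genes in that direction. Its deletion was part of the design. The other 9 genes had 0 past 2-fold in either direction. Upward 0 of the 10 reached 2-fold, beside 1.12% of all genes. At 1.5-fold Sox2 was still the 1 lower gene, beside 2.72% of all genes. The bounded counts were again 1 lower (Sox2) and 0 higher of the 10, beside 0.329% of all genes lower and 0.737% higher. Of the 10 genes 6 had lower signal in SOX2 KO and 4 higher, while 48.5% of all genes were lower and 47.4% higher. The median difference of the 10 was -0.165, or -0.10 without Sox2, beside 0.00 over all genes. A filter on low signal was not applied to these counts. Of the 10 genes 6 lay above the olfactory receptor level on at least 1 array (Sox2, Sox7, Sox9, Sox13, Sox15 and Sox21), as did 35.7% of all genes, and 4 lay below it on both (Sox4, Sox6, Sox11 and Sox17). Past the receptor SD of 0.26, 4 of the 10 were lower (Sox2, Sox9, Sox11 and Sox21), beside 15.2% of all genes, and 2 were higher (Sox4 and Sox7), beside 15.9%. Of these 6, Sox4 and Sox11 lay below the receptor level on both arrays.

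**Figure D1:**
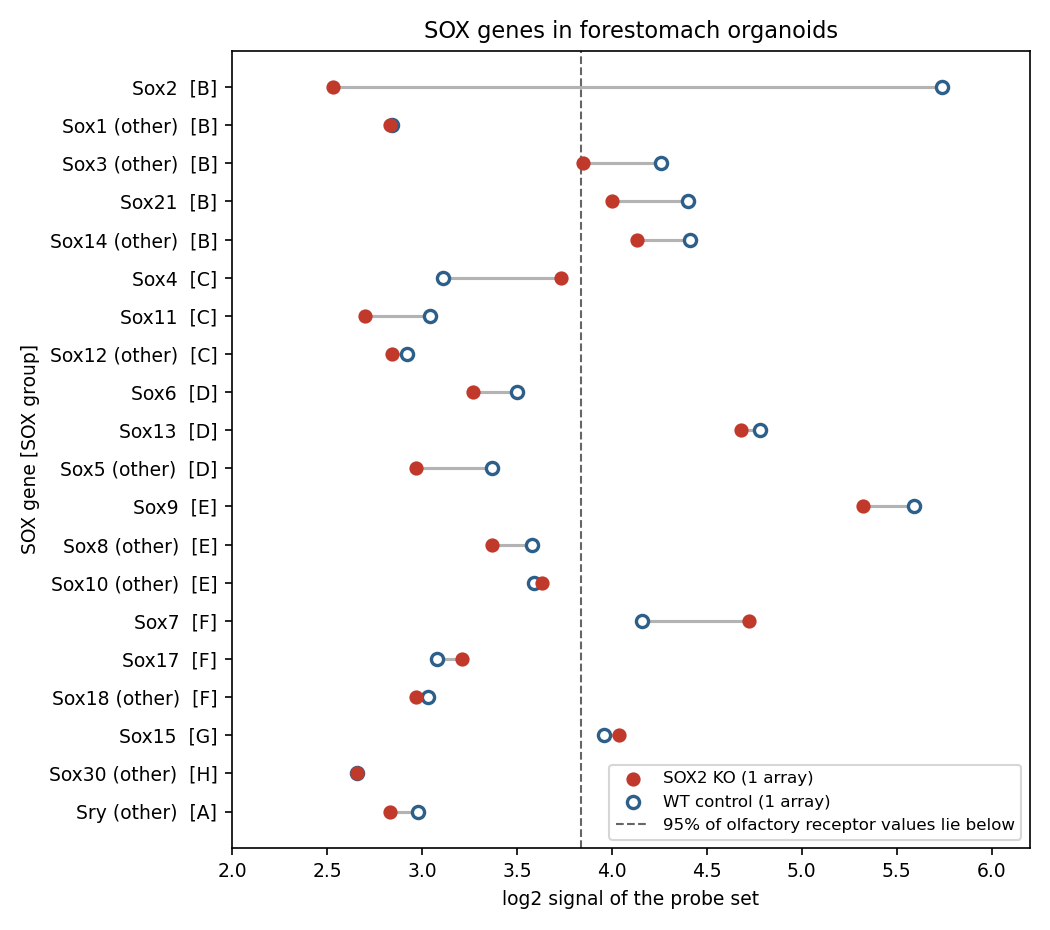
Log2 signal of each SOX gene (x axis) in the SOX2 KO array (filled red) and the WT control array (open blue), 1 array each, with genes ordered by SOX group in brackets and the 10 genes outside the set marked as other. The dashed line is the level of 3.84 below which 95% of olfactory receptor values lie. Sox2 crosses it (2.53 in SOX2 KO and 5.74 in WT control), and the pairs of the other genes lie within 0.62 of each other.

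Of the other group B genes, Sox3, Sox14 and Sox21 were lower in SOX2 KO, each by far less than Sox2, and Sox1 was nearly equal. Sox21 (chromosome 14, 118233232 to 118237030, minus strand, mm10) is a close relative of Sox2 that is best known as a repressor in neural progenitors, and it had 4.0 in SOX2 KO and 4.40 in WT control. Its difference of -0.40, or 1.32-fold lower, was the second lowest of the 10. It lay past the receptor SD and well short of 1.5-fold. Sox3, which acts in neural progenitors and the pituitary, had 3.85 in SOX2 KO and 4.26 in WT control. Sox14, a gene of the developing nervous system, had 4.13 in SOX2 KO and 4.41 in WT control. Sox1, another neural gene, had 2.83 in SOX2 KO and 2.84 in WT control, both below the receptor level. All 5 group B genes had a negative difference as deposited and after quantile and loess scaling, with Sox1 at -0.01 as deposited. Centring each array on its median left Sox1 at 0.00. Lower among all 29456 genes were 14282 (48.5%) as deposited, 15373 after quantile scaling and 14813 after loess scaling.

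Group C went in opposite directions at low signal. Sox4 (chromosome 13, 28948919 to 28953713, minus strand), which is broadly expressed in progenitor cells and in developing mesenchyme, had 3.73 in SOX2 KO and 3.11 in WT control. Both values lay under the receptor level, so no fold is given and the difference of 0.62 may not be resolved by the array. As deposited it was the 1 difference of the 10 past 1.5-fold upward, a size that 3.91% of all genes reached in that direction. Sox11 (chromosome 12, 27334268 to 27342718, minus strand), a close relative of Sox4 in developing neurons and mesenchyme, had 2.70 in SOX2 KO and 3.04 in WT control (-0.34). Sox12, the remaining gene of this group, had 2.84 in SOX2 KO and 2.92 in WT control.

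Group D genes lack a domain of their own for activation and pair with each other through a coiled coil. Sox13 (chromosome 1, 133382300 to 133424377, minus strand) had 4.68 in SOX2 KO and 4.78 in WT control, a difference of -0.10 well inside the receptor SD. Sox6 (chromosome 7, 115471344 to 116038744, minus strand), a gene of cartilage and red blood cell development, had 3.27 in SOX2 KO and 3.50 in WT control (-0.23), both below the receptor level. Sox5, which acts with Sox6 in cartilage, had 2.97 in SOX2 KO and 3.37 in WT control (-0.40), also below it. The 3 genes were lower in SOX2 KO as deposited and after each of the 3 scalings, but 1 of them, Sox13, lay above the receptor level. As deposited 48.5% of all 29456 genes were lower. The scalings gave 14156 lower genes after centring, 15373 after quantile scaling and 14813 after loess scaling.

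Sox9 (chromosome 11, 112782210 to 112787760, plus strand), the group E gene of cartilage and of many epithelial progenitor cells, had 5.32 in SOX2 KO and 5.59 in WT control. Its difference was -0.27, or 1.21-fold lower, close to the receptor SD of 0.26. Sox8 had 3.37 in SOX2 KO and 3.58 in WT control. Sox10, a gene of neural crest and Schwann cells, had 3.63 in SOX2 KO and 3.59 in WT control. Both lay below the receptor level in each library. Of 7 Schwann and neural crest markers, Sox10 among them, 4 were lower and 3 higher in SOX2 KO, while 48.5% of all genes were lower and 47.4% higher. The signals of these markers ran between 2.37 and 4.67 in SOX2 KO and between 2.67 and 4.74 in WT control, with Erbb3 the highest in each. On both arrays 5 of the 7 lay below the receptor level.

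Sox7 (chromosome 14, 63943674 to 63950732, plus strand), a group F gene known from endothelium and early endoderm, had the highest difference among the 6 genes above the receptor level. It had 4.72 in SOX2 KO and 4.16 in WT control, both above the receptor level, a difference of 0.56 or 1.47-fold higher. The other group F genes differed by less. Sox17 (chromosome 1, 4490928 to 4496413, minus strand), the factor of endoderm and arterial endothelium, had 3.21 in SOX2 KO and 3.08 in WT control. Sox18, a gene of blood and lymph vessels, had 2.97 in SOX2 KO and 3.03 in WT control. Beside the values of Sox7 and Sox17, 6 of 8 endothelial markers were lower and 2 higher in SOX2 KO, while 48.5% of all genes were lower and 47.4% higher. The markers had a median difference of -0.15 and no signal above 3.65 in SOX2 KO or 3.88 in WT control. On both arrays 7 of the 8 lay below the receptor level, and all 8 differences lay within the receptor SD. Linear signals summed over these markers were 71.5 in SOX2 KO and 76.6 in WT control, mostly from values below that level.

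Sox15 (chromosome 11, 69655037 to 69656727, plus strand), the single member of group G, is known in mouse from muscle satellite cells and from the placenta. It had 4.04 in SOX2 KO and 3.96 in WT control, a difference of 0.08. Sox30, a gene of male germ cells, had 2.66 in both libraries, and Sry, the sex-determining gene of the Y chromosome, had 2.83 in SOX2 KO and 2.98 in WT control. Over the 20 SOX genes, the 10 of the set and the 10 others, 14 were lower and 5 higher in SOX2 KO and 1 was equal. Among all genes 48.5% were lower and 47.4% higher. The receptor level was not reached on either array by 12 of the 20. Centring each array on its median gave 13 lower and 6 higher, and quantile scaling 15 lower and 5 higher. Beside these, 14156 of all 29456 genes were lower after centring and 15373 after quantile scaling. Without Sox2 the differences ran from -0.41 to 0.62 with a median of -0.10, and none of the 19 was past 2-fold.

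**Figure D2:**
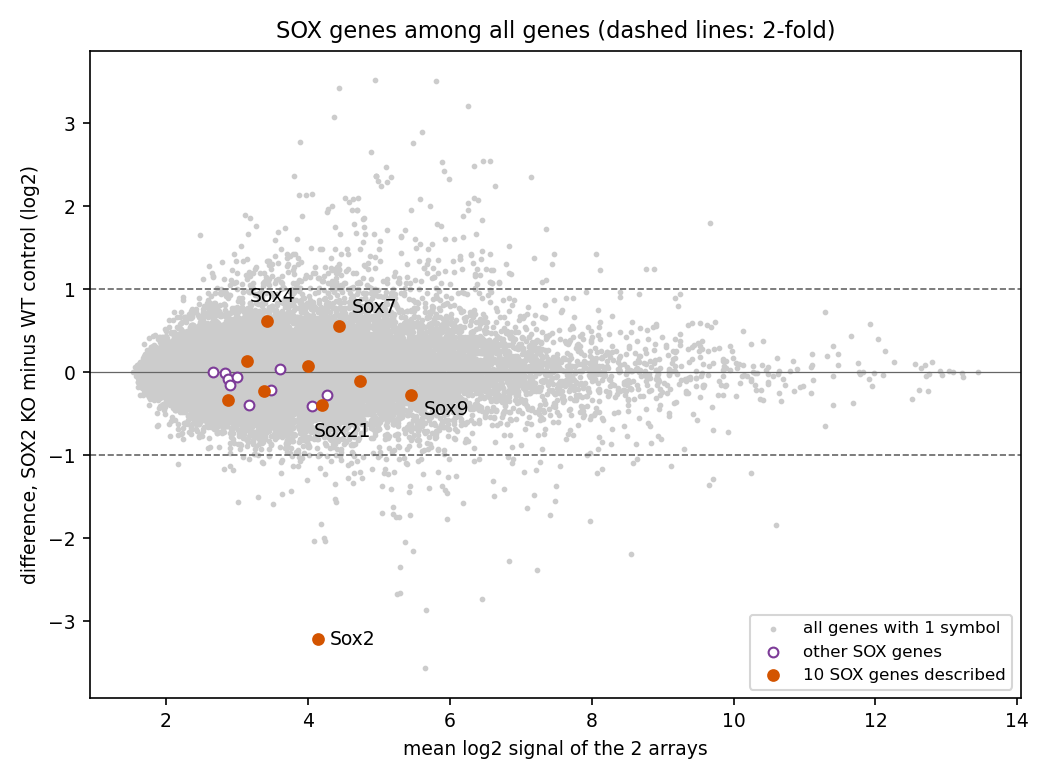
Difference in log2 signal, SOX2 KO minus WT control (y axis), against the mean log2 signal of the 2 arrays (x axis) for all 29456 genes (gray), the 10 SOX genes described (orange) and the other SOX genes (open purple). Dashed lines mark 2-fold. Sox2 lies at -3.21 as deposited, and the remaining SOX genes lie between the dashed lines.

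The probe sets that overlap Sox2ot on chromosome 3 did not share a direction. Sox2ot spans 117613 bases, from 34560381 to 34677993 (mm10), on the plus strand with Sox2. The probe set annotated to Sox2ot and Mir1897 (17396847) had 3.75 in SOX2 KO and 3.15 in WT control, a difference of 0.60. In the array annotation this probe set runs from 34104438 to 34682619, beyond the RefSeq gene at both ends, so its value is not that of the RefSeq transcript alone. A probe set without a symbol (17396876) lies at -59.4 kb from the Sox2 start, from 34590521 to 34590608, where RefSeq lists Sox2ot and no other gene. It covers 88 bases and had 2.21 in SOX2 KO and 3.29 in WT control, a difference of -1.08. The values of both these probe sets lay under the receptor level in each library, so no fold is given for either. Of the 3 probe sets, 2 had a deposited difference of -1 or lower (the deleted gene Sox2 and the one without a symbol), beside 0.455% of all 34472 probe sets. The bounded count was 1 (Sox2), beside 0.339%.

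The microRNA that shares the first of these rows lies at 34638464 to 34638542, inside Sox2ot, and its mature sequence from RefSeq (GRCm38.p6) is shown to identify the row, with the seed (bases 2 to 8) in capitals. The array row does not measure the mature microRNA on its own.
mmu-miR-1897-3p: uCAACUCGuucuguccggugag

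Genes on either side of Sox2ot differed less than Sox2. The 3 nearest with a single symbol upstream were the predicted genes Gm20515 (3.20 in both libraries) and Gm38505 (2.59 in SOX2 KO and 2.27 in WT control) and Dnajc19 (3.60 in SOX2 KO and 3.37 in WT control), which encodes a mitochondrial protein. The 3 nearest downstream were the predicted genes Gm3143, Gm21388 and Gm6639, with differences of -0.10, -0.16 and 0.04. All 6 had signals below the receptor level in both libraries, so a drop like that of Sox2 could not have been seen in them. The nearest brightly measured genes, named after their values were seen, were Fxr1 and Atp11b. Fxr1, an RNA-binding protein gene at -580.6 kb from the Sox2 start, had 6.98 in SOX2 KO and 7.01 in WT control. Atp11b, a phospholipid flippase gene at 1104.1 kb, had 7.0 in SOX2 KO and 7.69 in WT control (-0.69). That is past 1.5-fold lower, a size that 2.72% of all genes reached in that direction.

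**Figure D3:**
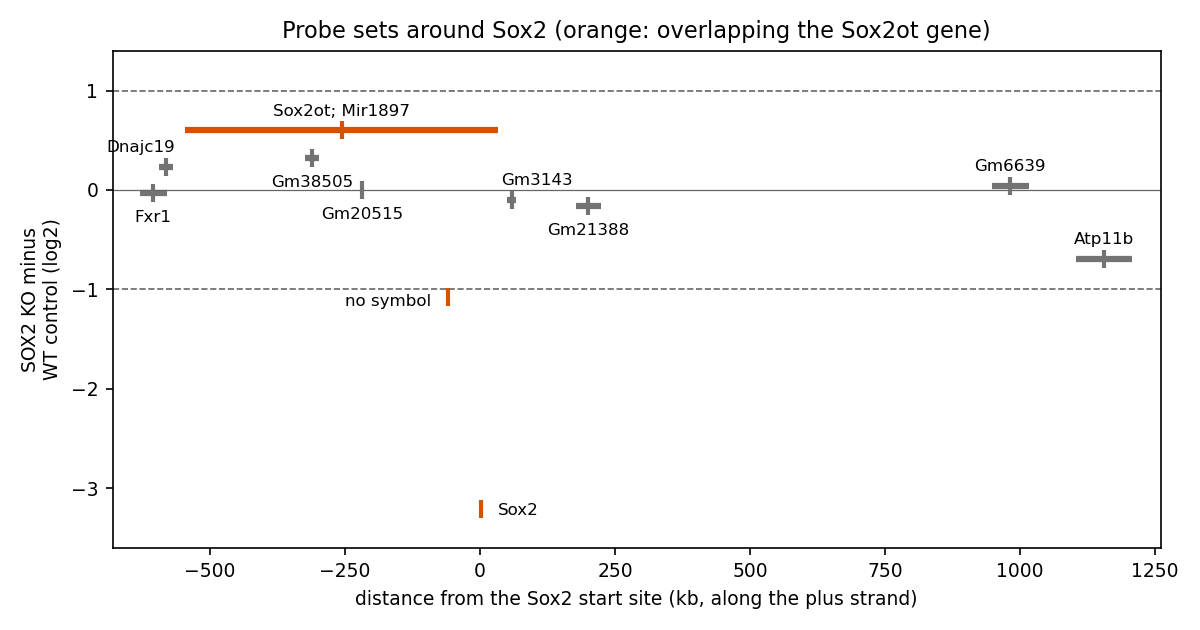
Difference in log2 signal, SOX2 KO minus WT control (y axis), of probe sets around Sox2 by distance from its start site in kb (x axis). Horizontal bars span each probe set, ticks mark its middle, orange marks overlap with Sox2ot and dashed lines mark 2-fold. Sox2 (-3.21) and the unnamed probe set (-1.08) lie below the lower line, while the Sox2ot row lies at 0.60, and both arrays are below the receptor level of 3.84 for the unnamed probe set and the Sox2ot row.

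Factors that act with SOX2 or that pattern the foregut were mostly close between the libraries. Past 2-fold there were 0 of the 7 and 0 of the 12 in either direction, which is near the shares of 0.435% lower and 1.12% higher over all genes. To any extent 48.5% of all genes were lower and 47.4% higher. Of 7 partner factors 4 were lower, 2 higher and 1 equal, with a median difference of -0.03. Trp63, the p63 gene of the squamous basal layer, had 6.31 in SOX2 KO and 6.44 in WT control. Klf5, a Krueppel-like factor of proliferating epithelium, had 7.96 in SOX2 KO and 8.06 in WT control. The chromatin remodeler Chd7 had 4.26 in SOX2 KO and 3.84 in WT control (0.42). Of 12 foregut patterning factors 8 were lower and 4 higher, with a median of -0.055. Among them Pitx1, a homeobox gene, had 5.38 in SOX2 KO and 4.96 in WT control, and Foxa1, a forkhead gene of endoderm, had 4.93 in SOX2 KO and 5.02 in WT control. Pax9 had 3.62 in SOX2 KO, below the receptor level, and 4.06 in WT control (-0.44). Foxe1 had 4.27 in SOX2 KO and 4.58 in WT control (-0.31). Past the receptor SD of 0.26 were Pitx1 upward and Pax9 and Foxe1 downward, while 9 of the 12 lay within it. Over all genes 15.2% were lower and 15.9% higher by more than this SD. Gata4, a factor of the glandular stomach, had 4.48 in SOX2 KO and 4.49 in WT control. Nkx2-1, the airway factor opposed to Sox2 in the early foregut, stayed below the receptor level (3.51 in SOX2 KO and 3.55 in WT control).

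The squamous label held in both libraries, while suprabasal squamous markers and smooth muscle markers differed between them. Over all genes 48.5% were lower and 47.4% higher to any extent. At least 2-fold lower were 0.435% and 2-fold higher 1.12%, and 0.329% and 0.737% in the bounded counts. Basal markers were present in SOX2 KO and WT control, with Krt5 at 8.71 in SOX2 KO and 8.86 in WT control. Krt5 was 1 of 2 that were lower in SOX2 KO, while 5 of the 7 were higher, with a median of 0.05. Past 2-fold was 1 of the 7, Krt15 (8.73 in SOX2 KO and 7.5 in WT control). Of 6 suprabasal markers 5 were lower in SOX2 KO and 1 was higher (Ivl, 5.04 in SOX2 KO and 4.82 in WT control), with a median of -1.13. At least 2-fold lower were 3 (Sprr3, Krt13 and Cnfn), all measured above the receptor level in both libraries. Linear signals of the 6 summed to 1510.2 in SOX2 KO and 3937.0 in WT control. Of 6 smooth muscle markers all were higher in SOX2 KO and 4 had differences past 1 (Acta2, Myh11, Actg2 and Cnn1). The bounded count was 3, without Cnn1 (at least 1.61-fold), and the list had a median difference of 1.68 with linear signals that summed to 314.5 in SOX2 KO and 79.5 in WT control. Of 7 fibroblast markers 4 were higher and 3 lower, with a median of 0.30 and 2 differences past 1 (Dcn and Postn). The bounded count was 1 (Dcn), since Postn lay below the receptor level in both libraries. The sums were 132.4 in SOX2 KO and 64.3 in WT control, or 72.7 in SOX2 KO and 57.2 in WT control without Dcn. Of 9 gastric glandular markers all 9 were higher with a median of 0.11, 6 of them within the receptor SD of 0.26. In WT control 0 lay above the receptor level, and 5 of the 9 lay below it on both arrays. The 1 difference past 1 was that of Pgc (at least 1.61-fold), and the bounded count was 0. The sums were 115.1 in SOX2 KO and 92.8 in WT control, or 91.9 in SOX2 KO and 82.3 in WT control without Pgc. The part of these cell types in the values of Sox4, Sox7 and Sox2ot was not tested.

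**Figure D4:**
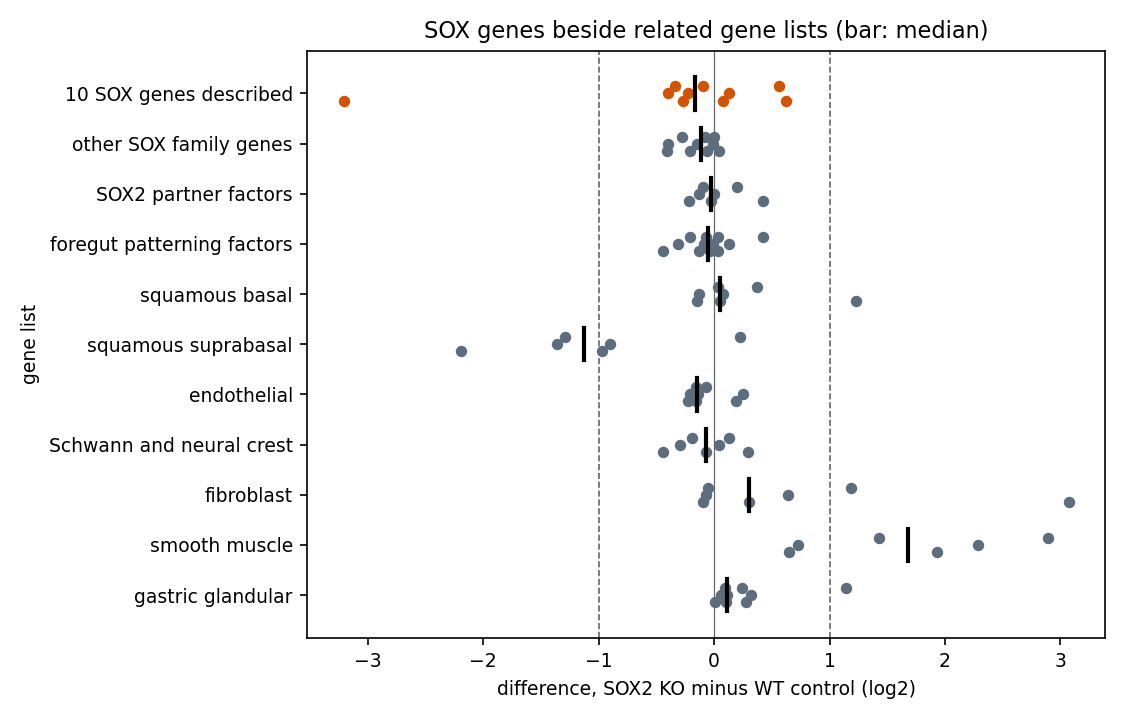
Difference in log2 signal, SOX2 KO minus WT control (x axis), of each gene in the lists named on the y axis. Points are genes, black bars list medians and dashed lines 2-fold. The 10 SOX genes have a median of -0.165 with Sox2 far to the left, and smooth muscle markers have a median of 1.68.

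The genes whose pair of signals lay nearest to that of Sox2 over the 2 libraries were sought among genes with 1 symbol, without predicted genes, clones, pseudogenes and small RNAs. The nearest was Chl1, a neural cell adhesion gene, at 3.07 in SOX2 KO and 5.11 in WT control, a Euclidean distance of 0.83 log2 units. Next came the small proline-rich gene Sprr2i (0.84), Cth, which encodes cystathionine gamma-lyase (0.98), the serpin gene Serpinb3a (1.23) and Crct1, a gene of the epidermal differentiation complex (1.24). The choice by nearness fixes that each was lower in SOX2 KO. All 5 lay below the receptor level in SOX2 KO, so their differences of -2.04 to -1.53 are not resolved in size.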

How the data were processed

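RNA from 1 SOX2 KO and 1 WT control forestomach organoid culture was labeled with the WT Plus assay. The deposited values are log2 signals per probe set with 2 decimals, which the authors made with Transcriptome Analysis Console on mm10 annotation. The sources used here name neither its version nor its summarization algorithm. The deposited fold change (WT control over SOX2 KO), p-value and FDR columns were not used, and 0 p-values lay below 1. The series value table held identical values.

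Groups came from the genotype labels. For a gene with several probe sets that of highest mean signal was taken (383 genes). Named were the SOX genes, the locus probe sets, 3 neighbors a side, the 5 genes nearest to Sox2 and list members past 2-fold or, in lists without any, up to 3 of highest signal. Fxr1, Atp11b, Krt5, Ivl, Nkx2-1, Pax9, Foxe1 and the antisense transcripts fall outside this rule and were chosen after their values were seen. The members and lists were chosen with earlier results of these data known. Counting and scaling were tested on simulated data. These had less noise than the olfactory receptor genes and larger differences than the SOX genes other than Sox2. The number of arrays limits the precision. Alternatives were 3 scalings (loess span 0.3), the series value table, the mean of probe sets, 3 filters on low signal, 1.5-fold and 3-fold thresholds, the mean in place of the median and the set without Sox2. The set without Sox15 and a floor at the olfactory receptor level were added after the data were seen. Python 3.11.15 and statsmodels 0.14.6 were used.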

Additional observations from a re-analysis of the deposited data

How the results depend on the processing

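No paired analysis was possible because there was 1 array in either group, and no array could be left out. Without replicates, a difference or a median was taken as moved when it changed by the olfactory receptor SD of 0.26 or more, and a count when it changed by over 1.5 times. The Sox2 difference ran from -3.28 to -3.20 over the deposited values and the 3 scalings, and none of the 10 genes changed direction under these. With the median signal of all genes required on both arrays, 5 of the 10 genes were left, Sox2 was removed by its own low value in SOX2 KO, and 0 were at least 2-fold lower. At 1.5-fold 1 gene was higher (Sox4). At 3-fold 1 of the 3 probe sets at Sox2ot was lower (Sox2). With signals below 3.84 set to that level, which was added after the data were seen, the Sox2 difference was -1.90, 1 of these 3 probe sets was at least 2-fold lower and the differences of Sox4 and Sox11 were 0.00. The other 44 values of the Sox2 difference, the counts and the median and 52 values of the other genes stayed within these limits. Many of them could not move, since the series value table is identical and each of the 10 genes has 1 probe set. Differences between signals below 3.84 may not be resolved, which limits Sox4, Sox6, Sox11, Sox17 and both Sox2ot rows.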

Other observations

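Transcripts named after the SOX genes but encoded on the opposite strand or in an intron were outside the set and were read after their values were seen. There were 7 such probe sets, 6 at Sox5 and 1 at Sox6. Of these 6 were lower and 1 was higher in SOX2 KO, with differences from -0.36 to 0.18, while 48.5% of all genes were lower and 47.4% higher. Their highest signal was 3.77, so 0 lay above the olfactory receptor level. Sox6os, opposite to Sox6, had 2.92 in SOX2 KO and 3.28 in WT control, and the Sox6 probe set on the other strand had 3.27 in SOX2 KO and 3.50 in WT control.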
